A study of Homo sapiens with 3 samples.

Results

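A set of 10 genes of the endoplasmic reticulum (ER) folding machinery was followed by RNA-seq in HepG2, a hepatocellular carcinoma line of human origin. The members were taken by gene name: HSPA5, HSP90B1, CALR, CANX, PDIA3, PDIA4, PDIA6, DNAJB9, SDF2L1 and HYOU1, which are 10 of the 62680 rows of the count table and 10 of the 12270 genes that averaged 1 CPM (count scaled to library size) or more and were compared. Wild-type HepG2 cells, all grown in DMEM with 10% fetal bovine serum and antibiotics, received 20 µM A740003, the same dose of A438079, or PBS, each for 48 h. Both compounds are described by the submitters as specific antagonists of P2X7, an ATP-gated cation channel, and PBS was the control. No source used here names a solvent for the antagonists, and an effect of one cannot be told apart from theirs. There was 1 library per treatment, so nothing is checked by replicates, treatments could not be tested against each other, and all intervals cover counting error only.

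Proteins that enter the ER are folded, disulfide-bonded and glycosylated there before export, and hepatocytes, which secrete most plasma proteins, depend heavily on this machinery. When unfolded proteins accumulate, the unfolded protein response starts from the sensors IRE1 (gene ERN1), PERK (gene EIF2AK3) and ATF6. Its transcription factors, cleaved ATF6 and spliced XBP1, bind ER stress response elements near the starts of chaperone genes, so that transcripts of these genes are widely used as a readout of ER stress. Within the group, HSPA5 (BiP) is the HSP70-type chaperone of the ER lumen, DNAJB9, SDF2L1 and HYOU1 are its partners, HSP90B1 is the HSP90-type chaperone, CALR and CANX are the lectin chaperones of glycoproteins, and PDIA3, PDIA4 and PDIA6 are protein disulfide isomerases.

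The elements through which this response is known to act are shown first, as background on the members. These elements are known from chaperone genes, so their presence in members is not a result of these data. Promoter windows from 250 bases before to 50 bases after each listed start were taken from RefSeq (GRCh38.p14), which matched 9 of the 10 members. PDIA3 was not matched. The ER stress response element was searched on both strands as CCAAT and CCACG with 9 bases between them, the second type of element (ERSE-II) as ATTGG and CCACG with 1 base between them, and the unfolded protein response element as TGACGTGG. The first element was present in 5 of the 9 matched members and in 25 of all 27305 genes with a window (0.0916%). Its sites, with the fixed letters in capitals and written on the strand that carries the motif, were as follows.
HSPA5, chr9:125241391-125241409: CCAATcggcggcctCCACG
HSP90B1, chr12:103930216-103930234: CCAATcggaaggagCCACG
HSP90B1, chr12:103930321-103930339: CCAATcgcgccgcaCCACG
CALR, chr19:12938384-12938402: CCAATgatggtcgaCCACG
CANX, chr5:179698778-179698796: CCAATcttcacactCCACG
PDIA6, chr2:10812853-10812871: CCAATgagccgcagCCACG
HSP90B1 held 2 such sites, which face opposite ways, and in CALR the site lies opposite to the gene. The CANX site stands in 3 of the 4 windows listed for that gene and the PDIA6 site in 1 of 2.

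The second element was found in SDF2L1 and HYOU1, 2 of the 9 matched members, and in 19 of all genes with a window (0.0696%). These sites, again on the strand of the motif, were as follows.
SDF2L1, chr22:21642114-21642124: ATTGGTCCACG
HYOU1, chr11:119057380-119057390: ATTGGACCACG
HYOU1, chr11:119057274-119057284: ATTGGACCACG
Both genes carry the element opposite to their own strand. HYOU1 held 2 copies, and its only match to the unfolded protein response element overlaps 1 of them. The last of these motifs occurred in 0.927% of all genes with a window and in no other member. PDIA4 and DNAJB9 held none of the 3 motifs in these letters. The windows of 4 members are printed whole, in the direction of the gene with the matched letters in capitals (a site on the opposite strand reads as its reverse complement), to show how the motifs lie: HSPA5 and HSP90B1 as the central chaperones, and SDF2L1 and HYOU1 as partners of HSPA5 that carry the second element. They are chr9:125241294-125241593 (minus strand) for HSPA5, chr12:103930160-103930459 (plus strand) for HSP90B1, chr22:21642052-21642351 (plus strand) for SDF2L1 and chr11:119057156-119057455 (minus strand) for HYOU1.
HSPA5: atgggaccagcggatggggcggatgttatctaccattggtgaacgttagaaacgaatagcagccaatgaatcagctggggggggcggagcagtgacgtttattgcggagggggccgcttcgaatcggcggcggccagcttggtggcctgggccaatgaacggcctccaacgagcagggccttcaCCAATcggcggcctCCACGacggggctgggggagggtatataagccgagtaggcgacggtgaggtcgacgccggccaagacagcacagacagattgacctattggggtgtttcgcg
HSP90B1: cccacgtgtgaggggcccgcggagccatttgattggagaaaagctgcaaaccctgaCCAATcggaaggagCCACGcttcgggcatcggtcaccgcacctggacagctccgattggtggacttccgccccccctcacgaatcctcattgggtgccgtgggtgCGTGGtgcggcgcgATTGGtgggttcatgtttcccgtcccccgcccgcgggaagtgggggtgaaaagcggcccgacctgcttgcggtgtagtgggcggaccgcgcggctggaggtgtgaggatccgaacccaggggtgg
SDF2L1: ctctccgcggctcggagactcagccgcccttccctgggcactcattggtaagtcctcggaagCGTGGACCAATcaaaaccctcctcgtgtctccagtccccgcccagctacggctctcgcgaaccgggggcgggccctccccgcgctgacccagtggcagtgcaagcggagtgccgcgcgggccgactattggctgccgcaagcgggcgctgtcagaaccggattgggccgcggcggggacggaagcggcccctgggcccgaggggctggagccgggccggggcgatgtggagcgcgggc
HYOU1: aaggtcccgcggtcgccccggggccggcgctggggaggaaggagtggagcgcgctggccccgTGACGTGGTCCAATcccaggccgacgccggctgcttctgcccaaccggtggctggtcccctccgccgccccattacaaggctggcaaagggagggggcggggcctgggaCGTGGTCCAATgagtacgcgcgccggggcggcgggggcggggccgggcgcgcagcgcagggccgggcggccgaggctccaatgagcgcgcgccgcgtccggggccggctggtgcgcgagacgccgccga
A match describes letters in a window and is not evidence that a factor was bound in these cells. The GC content of these 4 windows was 61.3% for HSPA5, 66.0% for HSP90B1, 72.3% for SDF2L1 and 78.0% for HYOU1.

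The A740003, A438079 and PBS libraries held 19735585, 19606761 and 19375501 expected counts. Transcripts of P2RX7, which encodes the targeted channel, numbered 2 in every library, under the floor of 3 counts, so no difference in it was detectable at this depth. All 8 hepatocyte and HepG2 markers were detected, with summed FPKM (a level scaled to gene length and library size) of 11217 with A740003, 12090 with A438079 and 12006 with PBS. Their summed counts were 436789, 457461 and 420751 in the same libraries, so the 2 measures order the libraries differently. The sums mix genes that went opposite ways. APOB had 169932, 158105 and 119636 counts, and AFP had 17122, 21567 and 23421. Of markers of other cells, PTPRC, CD3E, CDH5, VWF, COL1A1, COL3A1 and DCN were at 0 counts in all 3 libraries. CD68 had 632 to 758 counts, PDGFRB had 2 to 10 counts, and PECAM1 was not analysed here. Of the 3 bile duct markers KRT7 was at 0, and the summed FPKM of KRT19 and EPCAM was 249.97 with A740003, 301.03 with A438079 and 327.7 with PBS. The part of these differences in the results below was not tested.

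All 10 members were expressed in every library, and 7 of them were among the abundant transcripts of these cells. On the length-scaled FPKM level, CALR was the highest member, at 1363 with A740003, 1331 with A438079 and 1375 with PBS, which placed it at rank 104, 102 and 109 of all rows. HSPA5 came second in each library, at 807 FPKM with A740003, 784 with A438079 and 724 with PBS. Below them, the order of CANX and HSP90B1 differed between libraries. CANX had 709 FPKM with A740003, 673 with A438079 and 595 with PBS. HSP90B1 had 678 FPKM with A740003, 669 with A438079 and 635 with PBS, so that it stood under CANX in both antagonist libraries and above it in the PBS library.

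The disulfide isomerases followed the general chaperones in level. PDIA6 had 501 FPKM with A740003, 475 with A438079 and 453 with PBS. PDIA3 had 425 FPKM with A740003, 435 with A438079 and 446 with PBS, and PDIA4 had 317, 326 and 345 FPKM in the same libraries. PDIA3 and PDIA6 lay close together in the PBS library and further apart in the A740003 library. The HSPA5 partners were the lowest members. HYOU1 had 103 FPKM with A740003, 101 with A438079 and 105 with PBS. SDF2L1 had 42.1 FPKM with A740003, 31.4 with A438079 and 32.0 with PBS, and DNAJB9 had 21.7, 19.1 and 18.1 FPKM in those libraries. The HSPA5 level per length was therefore 37.1 times that of DNAJB9 with A740003, 41.0 times with A438079 and 39.9 times with PBS. Without replicate libraries, the order of neighbouring members has no measured spread.

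**Figure D1:**
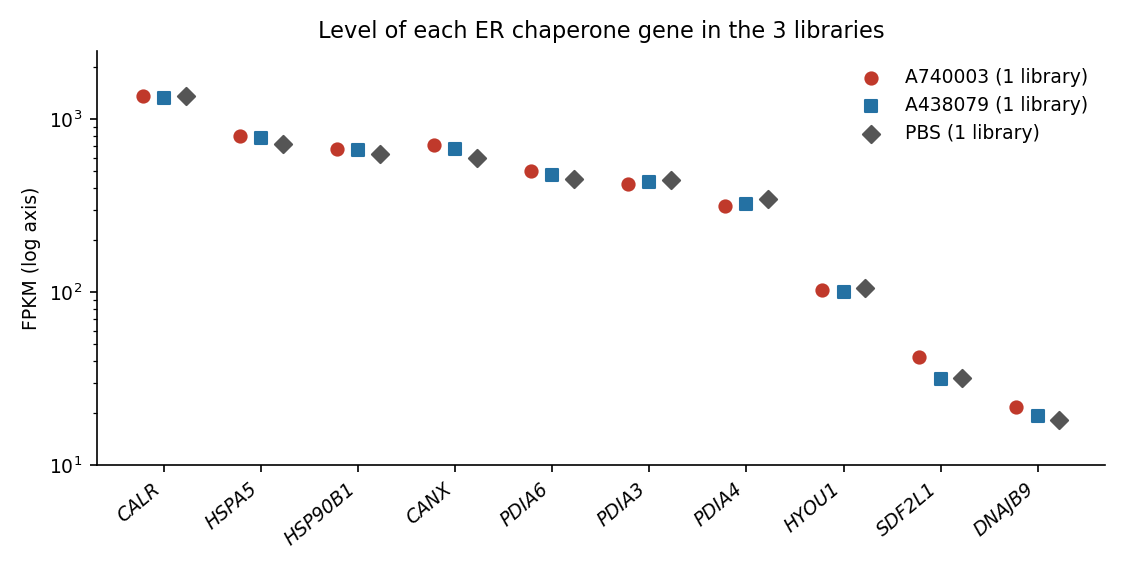
FPKM of the 10 ER chaperone genes (log axis) in the single A740003, A438079 and PBS library, genes ordered by their PBS level. CALR, at 1331 to 1375 FPKM, was highest in each library and DNAJB9, at 18.1 to 21.7 FPKM, lowest, and the 3 symbols of a gene lie close together.

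The comparison of each antagonist with PBS asked how the transcriptome of HepG2 cells differs when P2X7 antagonists are present. Counts were scaled for library size and composition with TMM, and a call, higher or lower, required a 1.5-fold ratio or more together with an exact 95% counting interval that left out 1. In the A740003 library 0 of the 10 members were called against PBS, where 13.8% of the genes compared were called (3.13% higher and 10.7% lower). In the A438079 library 0 of the 10 members were called, where 11.1% of the genes compared were called (1.63% higher and 9.43% lower). The ratios of the members lay between 0.923 and 1.34 with A740003 and between 0.939 and 1.14 with A438079. Their median log2 ratio was 0.13 with A740003 and 0.08 with A438079, beside 0.00082 and -0.0037 over all genes compared. Among the 1921 genes averaging 100 CPM or more, the level range of 8 of the 10 members, the median log2 ratio was 0.05 with A740003 and 0.07 with A438079. Both comparisons use the same PBS library, so a deviation of that library enters both.

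HSPA5 (ENSG00000044574; chr9:125234853-125241330, minus strand, GENCODE release 29 on GRCh38, the annotation used for all loci here) holds unfolded chains through its ATPase cycle and keeps the stress sensors inactive. It had 43592 counts with A740003, 42022 with A438079 and 38640 with PBS, and both antagonist libraries lay above the PBS library. Relative to PBS it stood at 1.10 times with A740003 (95% counting interval 1.09 to 1.12) and at 1.09 times with A438079 (1.07 to 1.10). The intervals are narrow at this depth, but how far repeated PBS cultures differ from each other was not measured. Of the genes compared, 32.4% had a higher log2 ratio than HSPA5 with A740003 and 30.0% with A438079.

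DNAJB9 (ENSG00000128590; chr7:108569568-108574850, plus strand) is a J-domain cofactor of HSPA5 that is known for its role in repressing IRE1. Its counts were 898 with A740003, 808 with A438079 and 749 with PBS, lowest in the PBS library. The ratio over PBS was 1.17 (1.06 to 1.29) with A740003, and 1.08 (0.977 to 1.20), an interval that includes 1, with A438079. DNAJB9 overlaps PNPLA8 and THAP5, which lie on the opposite strand and had 450 to 485 and 319 to 404 counts, and no source used here says whether counting used strand, which leaves its count uncertain. HSP90B1 and PDIA3 also overlap genes on the opposite strand, C12orf73 at 178 to 194 counts and ELL3 at 73 to 75 counts, which are few beside their own.

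SDF2L1 (ENSG00000128228; chr22:21642261-21644298, plus strand) belongs to HSPA5 complexes of the ER lumen. It had the fewest counts of the members, 468 with A740003, 353 with A438079 and 340 with PBS. The A740003 library was high and the other 2 lay close together. SDF2L1 stood at 1.34 times PBS (1.16 to 1.55) with A740003, the highest ratio of any member, and at 1.04 times (0.894 to 1.21) with A438079. With A740003, 8.16% of the genes compared had a higher log2 ratio. SDF2L1 was the 1 member called at a size of at least 25% above PBS with A740003, where 11.1% of the genes compared were, and with A438079 0 members and 6.01% of the genes were.

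HYOU1 (ENSG00000149428; chr11:119044189-119057202, minus strand) is an HSP110-type exchange factor that releases nucleotide from HSPA5. It had 8531 counts with A740003, 8028 with A438079 and 8563 with PBS, with the A438079 library lowest. Its ratio over PBS was 0.972 (0.943 to 1.001) with A740003 and 0.939 (0.911 to 0.968) with A438079, the lowest of the members in the A438079 library. The FPKM quotient of HSPA5 over HYOU1, which needs no library scaling, was 7.86 with A740003, 7.79 with A438079 and 6.88 with PBS. With the trend of ratios in GC content and length removed (described below), HYOU1 lay above PBS, at 1.08 and 1.05 times with A740003 and A438079, beside 1.07 and 1.05 times for HSPA5.

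HSP90B1 (ENSG00000166598; chr12:103930107-103953645, plus strand), which matures a restricted set of clients such as integrins and Toll-like receptors, had 33980 counts with A740003, 32965 with A438079 and 30294 with PBS. Its ratio was 1.09 in both antagonist libraries, with counting intervals of 1.08 to 1.11 for A740003 and 1.07 to 1.11 for A438079. HSP90B1 and HSPA5 kept nearly the same FPKM quotient, HSPA5 over HSP90B1 being 1.19 with A740003, 1.17 with A438079 and 1.14 with PBS.

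Of the lectin chaperones, CANX lay above PBS in both antagonist libraries and CALR lay close to it. CANX (ENSG00000127022; chr5:179678628-179730925, plus strand), the membrane-bound form, had 46928 counts with A740003, 45227 with A438079 and 39599 with PBS, and both antagonist libraries were higher. Its ratio was 1.16 (1.14 to 1.17) with A740003 and 1.14 (1.13 to 1.16) with A438079, the highest of the members in the A438079 library. CALR (ENSG00000179218; chr19:12938578-12944489, plus strand), its soluble counterpart, which also buffers calcium in the ER, had 43972 counts with A740003, 42831 with A438079 and 43192 with PBS. The CALR ratio was 0.993 over PBS in both antagonist libraries, with intervals of 0.980 to 1.01 that include 1. The FPKM quotient of CALR over CANX was 1.92 with A740003, 1.98 with A438079 and 2.31 with PBS.

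Among the disulfide isomerases, PDIA6 lay above PBS and PDIA4 below it. PDIA6 (ENSG00000143870; chr2:10783391-10837977, minus strand) had 19973 counts with A740003, 18840 with A438079 and 17570 with PBS, and ratios of 1.11 (1.09 to 1.13) and 1.07 (1.05 to 1.10) over PBS. PDIA4 (ENSG00000155660; chr7:149003062-149028641, minus strand) had 15718, 16094 and 16603 counts, and ratios of 0.923 (0.903 to 0.944) with A740003 and 0.971 (0.9502 to 0.992) with A438079. Under upper quartile scaling the A438079 ratio of PDIA4 was 1.01. PDIA3 (ENSG00000167004; chr15:43746392-43773279, plus strand), which pairs with CALR and CANX to form disulfides in glycoproteins, had 12721 counts with A740003, 12551 with A438079 and 12720 with PBS. Its ratio was 0.975 (0.952 to 0.9997) with A740003 and 0.989 (0.964 to 1.01) with A438079. Expected counts were not whole for 5 members, with the largest distance from a whole number 0.44 in PDIA3 and 0.30 in PDIA6, and under 0.1 in HSPA5, HSP90B1 and CANX. When the counts of the pseudogene PDIA3P1 were added, the PDIA3 ratio was 0.980 (0.956 to 1.005) with A740003, an interval that includes 1.

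**Figure D2:**
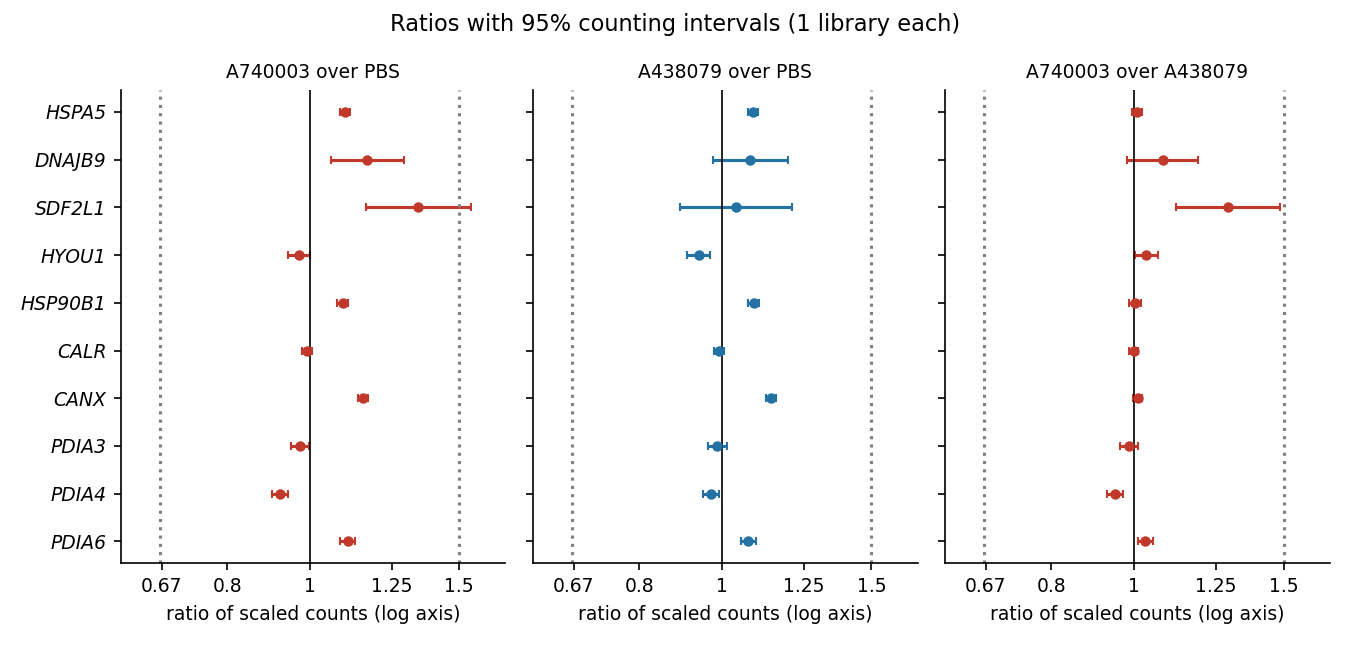
Ratio of TMM-scaled counts (log axis) with exact 95% counting intervals for each ER chaperone gene, for A740003 over PBS, A438079 over PBS and A740003 over A438079, from 1 library each. Dotted lines mark 1.5-fold; no ratio passes them, and the SDF2L1 intervals, 1.16 to 1.55 with A740003 and 0.894 to 1.21 with A438079 over PBS, are wide.

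At any size, counting intervals with A740003 lay wholly above 1 for 6 of the 10 members and wholly below 1 for 2, beside 26.1% and 26.7% of the genes compared. With A438079 they lay wholly above 1 for 4 members and wholly below for 2, beside 22.9% and 23.2% of the genes compared. Higher counts narrow such intervals, and most members have far more counts than the genes compared, whose mean count had a median of 442. These shares are therefore not matched for level, and no excess of members can be read from them. By ratio alone 6 members lay above PBS and 4 below in each antagonist library. Over all 12270 genes compared, 6153 lay above with A740003 and 6079 with A438079, and of the 1921 genes averaging 100 CPM or more, 1149 and 1294 did. Under upper quartile scaling, which shifts every gene alike and put the median log2 ratio of all genes at 0.06 and 0.05, 9 members lay above and 1 below in each library. CALR, PDIA3 and HYOU1 with A740003, and CALR, PDIA3 and PDIA4 with A438079, were the members that changed side under that scaling. With FPKM, 5 lay above and 5 below for A438079, SDF2L1 then being at 0.982 times PBS.

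**Figure D3:**
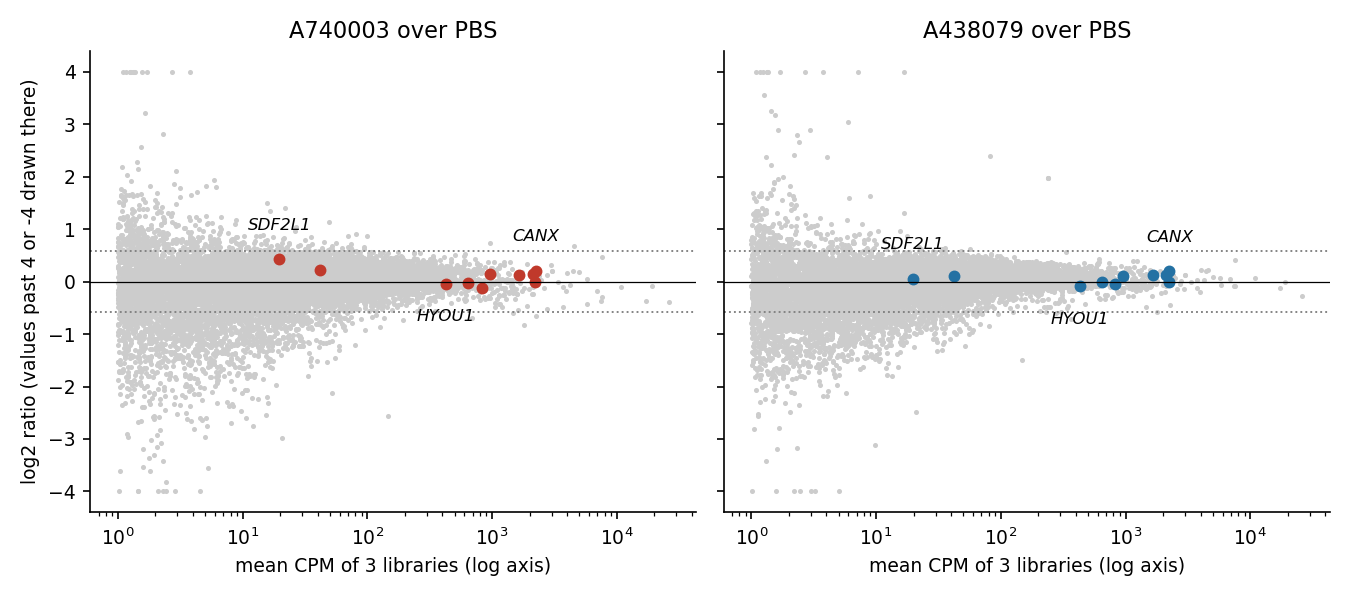
Log2 ratio over PBS against mean CPM (log axis) for the 12270 genes compared (grey) and the 10 ER chaperone genes (coloured), with A740003 on the left and A438079 on the right. Dotted lines mark 1.5-fold, and the members lie between log2 ratios of -0.12 and 0.42 with A740003 and between -0.09 and 0.19 with A438079.

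As a sum, the members made up slightly more of the A740003 and A438079 libraries than of the PBS library. Their summed counts were 226781 with A740003, 219719 with A438079 and 208270 with PBS. That was 1.149% of the A740003 library, 1.121% of the A438079 library and 1.075% of the PBS library. The exact binomial 95% intervals of these unscaled shares ran from 1.144% to 1.154%, 1.116% to 1.125% and 1.070% to 1.080%. They did not overlap, but at such counts small differences separate intervals. How often sums of other genes separate in this way was not computed, so the separation is not read as a result. After scaling, the sum stood at 1.06 times PBS in both antagonist libraries. For A740003 over A438079 the scaled sum stood at 1.005 (0.999 to 1.01), an interval that includes 1. The mitochondrial genome took 8.38% of counts with A740003, 9.39% with A438079 and 10.3% with PBS. Scaled by total counts alone, the members had a median log2 ratio over PBS of 0.14 with A740003 and 0.06 with A438079. Scaled by totals without mitochondrial genes, they had 0.11 and 0.05.

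Within the pool of the 10 genes, which is free of library scaling but not of the trend in GC content described below, the balance differed slightly between libraries. CANX took 20.7% of the pool with A740003 and 20.6% with A438079, against 19.0% with PBS. CALR took 19.39% with A740003 and 19.5% with A438079, against 20.7% with PBS, so that CANX led in the antagonist libraries and CALR in the PBS library. PDIA4 took 6.93% with A740003, 7.32% with A438079 and 7.97% with PBS. PDIA3 took 5.61%, 5.71% and 6.11%, and HYOU1 3.76%, 3.65% and 4.11%, in the A740003, A438079 and PBS libraries. HSPA5 took 19.2% with A740003 and 19.1% with A438079, against 18.6% with PBS. For each of these 6 genes, and for HSP90B1 at 15.0%, 15.0% and 14.5%, the exact binomial intervals of both antagonist libraries lay apart from that of the PBS library. At these counts small differences separate such intervals. How often shares of other genes separate in this way was not computed, so the separation is not read as a result. With A740003 SDF2L1 took 0.206% of the pool (0.188% to 0.226%). Its share was 0.161% in the A438079 library (0.144% to 0.178%) and 0.163% in the PBS library (0.146% to 0.182%).

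**Figure D4:**
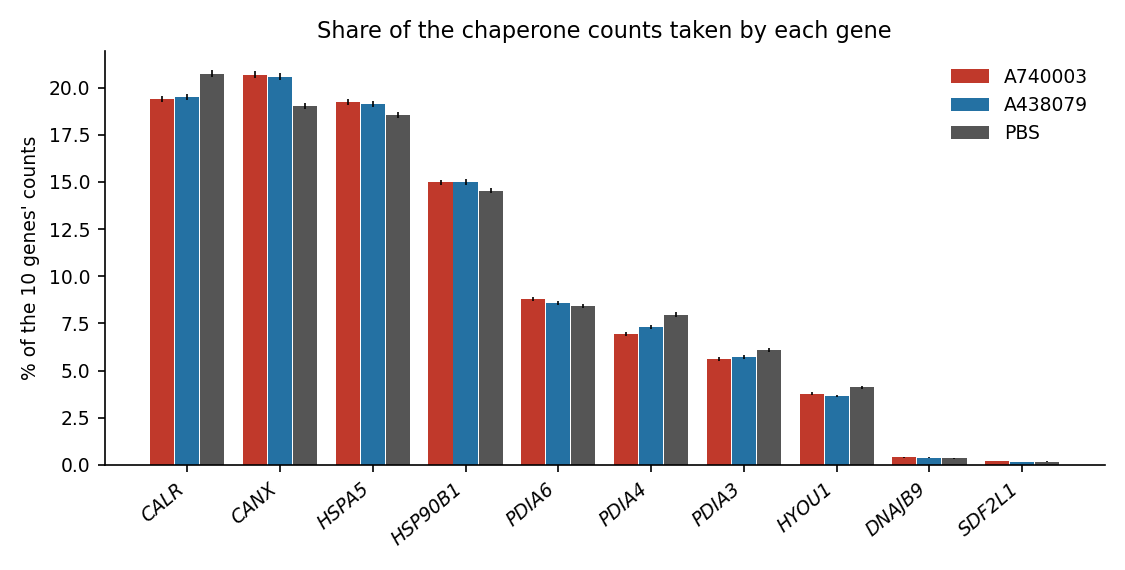
Share of the summed counts of the 10 ER chaperone genes taken by each gene in the A740003, A438079 and PBS library (1 library each), with exact 95% binomial intervals as bars. CANX, at 20.7%, 20.6% and 19.0%, and CALR, at 19.39%, 19.5% and 20.7%, change places between the antagonist libraries and the PBS library.

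Transcript GC content moved with the ratios over all genes in both comparisons, and the members span much of its range. Genes were split into 4 equal bins of GC content. In the lowest bin (27.8% to 41.6%) the median log2 ratio was 0.11 with A740003 and 0.12 with A438079, and in the highest bin (55.4% to 75.8%) it was -0.26 and -0.27. DNAJB9, HSP90B1 and CANX, at 40.4%, 41.2% and 41.6% GC, belong to the lowest bin and all lay above PBS. PDIA3, PDIA6 and HSPA5, at 43.8%, 45.8% and 46.0%, belong to the second bin, where the median log2 ratio was 0.07 with A740003 and 0.06 with A438079, and PDIA3 lay below PBS and the other two above it. PDIA4, CALR and HYOU1, at 53.0%, 53.9% and 55.2%, belong to the third bin and all lay below PBS with TMM scaling. SDF2L1, at 65.5%, was the only member in the highest bin. With the trend in GC content and length removed, the median log2 ratio of the members was 0.10 with A740003 and 0.07 with A438079. CANX then had log2 ratios of 0.10 with A740003 and 0.10 with A438079, against 0.21 and 0.19 before that step. HYOU1 had 0.11 and 0.07 after that step, against -0.04 and -0.09 before it. SDF2L1 stood at 0.33 with A740003 and 0.09 with A438079 after it, and PDIA3, at -0.10 and -0.08, was the lowest member in both libraries. After the step 7 of the 10 members lay above 0 with A740003 and 9 with A438079, beside 5887 and 5865 of the 11906 genes with a value and 983 and 1125 of the 1917 of these averaging 100 CPM or more.

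**Figure D5:**
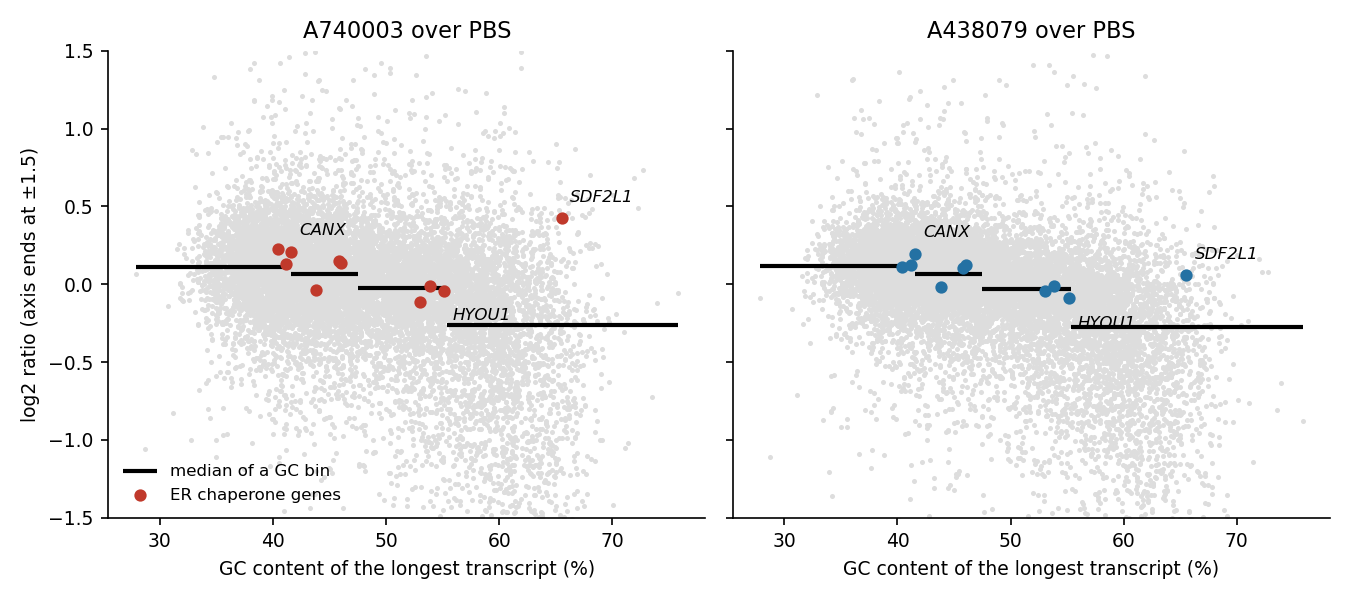
Log2 ratio over PBS against GC content of the longest transcript for all genes with a value (grey), the medians of 4 GC bins (black bars) and the 10 ER chaperone genes (coloured), for A740003 and A438079. The bars run down from 0.11 to -0.26 with A740003 and from 0.12 to -0.27 with A438079, and SDF2L1, at 65.5% GC, lies above the bar of its bin in both panels.

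The antagonists, matched in dose and time, were also compared directly, which does not use the PBS library. Of the 10 members, 0 were at least 1.5-fold apart between the A740003 and A438079 libraries, where 5.26% of the genes compared were (2.44% higher and 2.81% lower with A740003). The ratios of A740003 over A438079 lay between 0.951 and 1.29, with a median log2 ratio of 0.01. SDF2L1, with 468 counts against 353, had the largest, 1.29 (1.12 to 1.49), and was the 1 member called at a size of at least 25% higher, where 5.66% of the genes compared were. Removing the GC and length trend put its ratio at 1.19, under that size. PDIA6 stood at 1.03 (1.01 to 1.05), HYOU1 at 1.03 (1.003 to 1.07) and PDIA4 at 0.951 (0.930 to 0.972), and these were the other intervals that excluded 1, so that 3 lay above 1 and 1 below, beside 15.6% and 17.4% of the genes compared. Those shares, too, are not matched for level. For HSPA5, HSP90B1, CALR and CANX the ratios were 1.01, 1.003, 0.999 and 1.01, and their counting intervals all lay between 0.986 and 1.02. The summed counts of the 10 members stood at 1.005 (0.999 to 1.01).

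By a rule that took genes of at least 50 CPM with the closest pair of log2 ratios over PBS, 3 genes were nearest to SDF2L1, the member with the largest ratio. ID1, an inhibitor of helix-loop-helix transcription factors, had 2512 counts with A740003, 1869 with A438079 and 1814 with PBS. BNIP3L, a mitophagy receptor gene, had 1463, 1116 and 1057 counts, and MFN1, a mitochondrial fusion gene, had 1781, 1395 and 1322 counts. The larger of the 2 log2 differences from SDF2L1 was 0.011 for ID1, 0.024 for BNIP3L and 0.031 for MFN1. These genes were chosen for that closeness, so it is not a result. The likeness rests on 3 libraries. The counting intervals of SDF2L1 over PBS, 1.16 to 1.55 with A740003 and 0.894 to 1.21 with A438079, are far wider than these differences.

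The genes that sense unfolded proteins and drive the chaperone genes were examined next. Of 16 sensors and transcription factors, all measured, 0 were called with A740003, and 1 was called lower with A438079, beside 13.8% of all genes called with A740003 and 9.43% called lower with A438079. Their median log2 ratio was 0.09 with A740003 and 0.03 with A438079. XBP1 had 10915 counts with A740003, 10549 with A438079 and 11001 with PBS, ratios of 0.968 (0.942 to 0.994) and 0.961 (0.935 to 0.987); gene counts do not separate its spliced form. ATF6 had 1675 counts with A740003, 1634 with A438079 and 1543 with PBS, and ratios of 1.06 in both antagonist libraries, with intervals that include 1. EIF2AK3 stood at 1.05 (0.942 to 1.16) with A740003 and 0.975 (0.875 to 1.09) with A438079. ERN1 had 114, 122 and 132 counts, and its ratio with A740003 was 0.842 (0.650 to 1.09) by counts and 1.30 by FPKM, so no direction can be given.

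The PERK branch genes ATF4 and DDIT3 had their highest counts in the A740003 library. ATF4 had 6491 counts with A740003, 5875 with A438079 and 5850 with PBS, and stood at 1.08 (1.04 to 1.12) and 1.01 (0.970 to 1.04) times PBS. DDIT3, the CHOP gene, had 267, 188 and 217 counts in those libraries, at 1.20 (0.999 to 1.44) times PBS with A740003 and 0.868 (0.710 to 1.06) with A438079, and at 1.38 (1.14 to 1.68) times A438079 with A740003. MBTPS1 and MBTPS2, the proteases that cleave ATF6, stood above PBS in both libraries. MBTPS1 was at 1.2465 times PBS with A740003 and 1.09 times with A438079, and MBTPS2 at 1.252 and 1.47 times. ATF6B, a relative of ATF6, stood at 1.29 times PBS by counts and 0.946 times by FPKM with A740003. CREB3L3, a liver transcription factor that is cleaved like ATF6, had 250 counts with A740003, 149 with A438079 and 264 with PBS, and was the 1 gene called, at 0.565 (0.459 to 0.694) times PBS with A438079. With A740003 it stood at 1.63 (1.33 to 2.01) times A438079. There it was the 1 gene of the list called higher, beside 2.44% of the genes compared.

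Further chaperones and HSPA5 cofactors were all measured, 20 of 20, and 0 were called in either antagonist library against PBS. Of all genes compared, 13.8% were called with A740003 and 11.1% with A438079. Their median log2 ratio was 0.03 with A740003 and -0.0089 with A438079. MANF, a secreted ER stress protein that binds HSPA5, had 2140 counts with A740003, 1673 with A438079 and 1766 with PBS. Its ratios were 1.18 (1.11 to 1.26) with A740003 and 0.949 (0.887 to 1.02) with A438079 over PBS, and 1.245 (1.17 to 1.33) for A740003 over A438079. In that last comparison 13 genes of the list lay above 1 and 7 below. DNAJC10, a J-domain reductase, stood at 1.21 (1.17 to 1.26) times PBS with A740003 and 1.16 (1.12 to 1.20) with A438079; removing the GC and length trend left log2 ratios of 0.06 and 0.03. CNPY3 stood at 0.834 and 0.923 times PBS, and SERPINH1, the collagen chaperone, at 0.889 and 0.861 times. Removing that trend left log2 ratios of -0.0086 and -0.05 for SERPINH1 and of -0.25 and -0.03 for CNPY3.

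Of 25 further disulfide isomerase and ER oxidation genes 23 were measured, of which 1 was called higher and 1 lower with A740003, and 1 higher and 0 lower with A438079. Of all genes, 3.13% were called higher and 10.7% lower with A740003, and 1.63% and 9.43% with A438079. VKORC1, the vitamin K epoxide reductase of the ER, had 1153 counts with A740003, 844 with A438079 and 666 with PBS, at 1.69 (1.53 to 1.86) and 1.27 (1.15 to 1.41) times PBS. ERO1B, an oxidase that reoxidises disulfide isomerases, had 236, 279 and 163 counts, at 1.41 (1.15 to 1.73) and 1.71 (1.41 to 2.09) times PBS. TXNDC16 stood at 1.48 and 1.24 times PBS and QSOX1 at 0.758 and 0.779 times, for which log2 ratios of 0.07 and 0.05 were left once that trend was removed. The gene called lower, GPX7, is named after its values were seen. Over the list the log2 ratio had a median of -0.0027 with A740003 and -0.0080 with A438079.

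In the calnexin cycle and oligosaccharyltransferase list 16 of 16 genes were measured, and 1 was called lower in each antagonist library, beside 10.7% of all genes with A740003 and 9.43% with A438079. This was MOGS, the glucosidase that trims the first glucose from new N-glycans, with 205 counts with A740003, 257 with A438079 and 397 with PBS. It stood at 0.504 (0.423 to 0.598) and 0.649 (0.552 to 0.761) times PBS, and its log2 ratios were -0.57 and -0.23 once that trend was removed, both short of 1.5-fold, so that neither call held. PRKCSH, a subunit of the next glucosidase, stood at 0.707 (0.663 to 0.754) and 0.759 (0.713 to 0.809) times PBS. RPN2, an oligosaccharyltransferase subunit, had 16802, 15290 and 12794 counts and ratios of 1.28 (1.252 to 1.31) with A740003 and 1.20 (1.17 to 1.23) with A438079. UGGT2, a glycoprotein folding sensor, stood at 1.34 and 1.19 times PBS. Over the list the log2 ratio had a median of 0.08 with A740003 and 0.07 with A438079. With the GC and length trend removed the medians were 0.05 and 0.0033.

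For ER-associated degradation 22 of 23 genes were measured and 1 was called lower in each antagonist library (10.7% and 9.43% of all genes were), SYVN1, the ubiquitin ligase gene, named after its values were seen. SYVN1 had 84 counts with A740003, 56 with A438079 and 149 with PBS, at 0.550 (0.416 to 0.723) and 0.377 (0.272 to 0.515) times PBS. By FPKM, it stood at 0.734 times PBS with A740003, short of 1.5-fold, and at 0.628 times with A438079. Once the GC and length trend was removed, its log2 ratios were -0.59 and -1.19, both past 1.5-fold. HERPUD1, a frequently used transcript of ER stress, had 1794 counts with A740003, 1624 with A438079 and 1663 with PBS, and ratios of 1.05 (0.984 to 1.13) and 0.978 (0.913 to 1.05) that include 1. SEL1L, the partner of that ligase, stood at 1.31 (1.255 to 1.37) and 1.246 (1.19 to 1.30) times PBS, and EDEM3, a mannosidase that marks proteins for degradation, at 1.44 and 1.19 times. Without that trend the log2 ratios were 0.19 and 0.15 for SEL1L, and 0.34 and 0.09 for EDEM3. HERPUD2 stood at 0.951 times PBS by counts (0.730 to 1.24) and 1.10 times by FPKM with A740003, and at 1.36 times by counts with A438079. UBE2J2 stood at 0.757 times in both antagonist libraries. Over the list the log2 ratio had a median of 0.07 with A740003 and 0.01 with A438079.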

How the data were processed

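The 3 mRNA-seq libraries, 1 each for cells under A740003, A438079 and PBS, were prepared with a SMARTer kit, per the labels' protocols. The authors deposited expected counts per gene and FPKM values per gene, each for 62680 rows. Value columns were matched to samples by the letter in each sample's description. The submitters' processing notes name GRCm38, a mouse build, although the rows are human genes. Among points not given in the sources used here are the aligner, the counter, the annotation and the use of strand. Rows without an Ensembl identifier (116, holding 0.0775% to 0.0853% of counts) stayed in the totals.

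After rounding to whole numbers, expected counts were scaled by TMM (edgeR 4.0.16 under R 4.3.3; factors 1.01, 0.989 and 1.00 for A740003, A438079 and PBS). A mean of 1 CPM or more (19.4 to 19.9 counts) admitted a gene to the comparisons, which used the ratio of scaled counts with exact conditional binomial (Clopper-Pearson) 95% intervals (scipy 1.17.1). Log2 ratios used a pseudocount of 0.5 counts. Intervals and floors cover counting error only, since no molecular identifiers are described. Transcript GC content and length came from the longest GENCODE release 29 transcript, for 11906 genes (97.0%) and 10 of the 10 members, and the median over 201 neighbours in rank was subtracted. The interval step was also run on simulated counts that held Poisson counting error only, the error that it assumes. That run cannot show how the intervals perform with variation between cultures or libraries. Tried as alternatives were scaling by total counts, by DESeq2 1.42.0, by upper quartiles and without mitochondrial genes, unrounded counts, other filters and fold sizes, FPKM with pseudocounts of 0.1 and 1, and the GC and length step.

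The members, the 9 further gene lists and the naming rule were chosen with earlier results of these data known. The rule took all members, ERN1, EIF2AK3, ATF6, XBP1, ATF4, DDIT3, HERPUD1 and P2RX7, up to 4 genes of each list that average 5 CPM or more and have the largest log2 ratios over PBS, and the 3 genes nearest to the member with the largest ratio. Not every marker gene examined is reported here.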

Additional observations from a re-analysis of the deposited data

How the results depend on the processing

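The number of members called at least 1.5-fold higher or lower was 0 in each direction of all 3 comparisons. It was also 0 with each other scaling, with FPKM, with unrounded counts and with the GC and length step; the filters on low counts and the 2-fold size could not change it by construction. With calls from 25% higher, 1 member (SDF2L1) was higher for A740003 over PBS and 1 (SDF2L1 again) for A740003 over A438079. Over the 11 settings, the SDF2L1 ratio ranged from 1.26 to 1.40 for A740003 over PBS, from 0.983 to 1.08 for A438079 over PBS and from 1.19 to 1.34 for A740003 over A438079. HSPA5 ranged from 1.07 to 1.15 with A740003 and from 1.05 to 1.13 with A438079 over PBS, CANX from 1.07 to 1.20 and from 1.07 to 1.18, and CALR from 0.978 to 1.03 and from 0.967 to 1.03. Of the 300 recomputed member ratios, 66 moved outside the counting interval of the reported ratio, and the cause was not tested. The filters on low counts could not move a ratio, and unrounded counts barely did, so these settings added only to the ratios that stayed. The median log2 ratio of the members ranged from 0.10 to 0.19 with A740003 and from 0.02 to 0.13 with A438079 over PBS, while that of all genes ranged from -0.04 to 0.06 and from -0.05 to 0.05. No paired analysis was possible because each treatment has 1 library, and for the same reason no library could be left out. Counting error limits SDF2L1 and DNAJB9 most, and the variation between cultures was not measured.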

Other observations

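Genes of the steps before and after folding were also examined. Of 18 translocon and signal peptidase genes, all measured, 0 were called against PBS in either antagonist library. Of all genes compared, 13.8% were called with A740003 and 11.1% with A438079. The median log2 ratio of the list was 0.0082 with A740003 and -0.0089 with A438079. SEC61B, a subunit of the translocation channel, stood at 1.30 (1.20 to 1.41) times PBS with A740003 and 1.12 (1.03 to 1.22) with A438079. SEC62 stood at 1.15 and 1.252 times, SEC61A2 at 1.24 and 1.18 times, and SEC11C, a signal peptidase subunit, at 0.838 and 0.847 times. Removing the GC and length trend left SEC62 at log2 ratios of 0.01 and 0.15. The others were then at 0.39 and 0.15 (SEC61B), 0.30 and 0.23 (SEC61A2), and -0.27 and -0.25 (SEC11C). Of 22 genes for KDEL receptors and ER exit, all measured, 0 were called, beside the same shares of all genes. Their medians were 0.04 in each antagonist library, and -0.01 with A740003 and -0.0044 with A438079 once the GC and length trend was removed. KDELR3, a receptor that returns ER residents, stood at 0.861 times PBS with A740003 and 0.914 times with A438079, SAR1B at 0.876 and 0.976 times, TMED10 at 1.16 and 1.10 times, and ERGIC1 at 1.18 and 1.02 times.

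Chaperones outside the ER were set beside those within it. Of 18 such genes, all measured, 0 were called against PBS, beside 13.8% of all genes with A740003 and 11.1% with A438079. Their median log2 ratio was 0.14 with A740003 and 0.07 with A438079. With the GC and length trend removed it was 0.06 and 0.07, beside 0.10 and 0.07 for the ER members. HSPA1B, whose reads may be split with its near-identical copy HSPA1A, had 4113 counts with A740003, 3283 with A438079 and 3142 with PBS, at 1.28 (1.22 to 1.34) and 1.05 (0.997 to 1.10) times PBS. HSPH1 stood at 1.18 and 1.19 times, TCP1, a subunit of the cytosolic chaperonin, at 1.14 and 1.18 times, and HSPE1, the mitochondrial co-chaperonin gene, at 0.824 and 0.916 times. Removing the GC and length trend left HSPH1 at log2 ratios of 0.09 and 0.10. The others were then at 0.52 and 0.25 (HSPA1B), 0.13 and 0.19 (TCP1), and -0.31 and -0.16 (HSPE1).

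Secreted liver proteins are clients of the ER machinery, and their transcripts were examined last. Of 16 such genes 15 were measured, of which 1 was called higher and 0 lower with A740003 over PBS, and 0 with A438079 over PBS. Of all genes, 3.13% were called higher and 10.7% lower with A740003, and 11.1% in either direction with A438079. The gene called was TTR, the thyroid hormone carrier, with 149 counts with A740003, 115 with A438079 and 88 with PBS. It stood at 1.65 (1.26 to 2.17) times PBS with A740003 and at 1.31 (0.983 to 1.75), an interval that includes 1, with A438079. ALB had 95722 counts with A740003, 120012 with A438079 and 125391 with PBS, at 0.745 (0.738 to 0.751) and 0.959 (0.951 to 0.966) times PBS. APOH stood at 0.712 and 0.889 times, and FGB at 0.739 and 1.11 times. FGB was the 1 gene called lower for A740003 over A438079, at 0.665 (0.632 to 0.699), beside 2.81% of the genes compared. Its log2 ratio in that comparison was -0.55 once the GC and length trend was removed, short of 1.5-fold. The median log2 ratio of the list was -0.05 with A740003 and 0.06 with A438079.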
